A study of Homo sapiens with 12 samples.

Results

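The data described here follow 1 knockout line from the stem cell to the blood progenitor: 2 RNA-Seq libraries of HPCs derived from H1-GATA2-/- hESCs, set against 2 libraries of the undifferentiated H1-GATA2-/- hESCs. These are 4 of the 10 libraries with values in a series of 12 labelled samples. Genes were included where the TPM was at least 1 in at least 2 of the 4 libraries, which 18361 of the 56266 listed genes met. TPM, a length-corrected share of the transcripts in a library, divides reads by transcript length and scales each library to the same total, so levels can be set side by side between genes, but read depth is unknown. H1 is a long-established hESC line. H1-GATA2-/- is a single clone made with TALENs, in which a PGK promoter-neomycin cassette disrupts exon 3 of GATA2 on both alleles, and all 4 libraries share this disruption. The hESCs were kept in mTeSR1 medium on Matrigel. The HPCs came from co-culture, in medium with serum, on OP9, a mouse bone marrow stromal line, and were sorted on day 9 for CD34 and CD43. Stage, medium, co-culture and sorting differ together between the groups and cannot be told apart. WT hESCs were not analysed here.

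Human pluripotent cells are held in that state by a small circuit of transcription factors around OCT4 (encoded by POU5F1), SOX2 and NANOG, under FGF and activin/Nodal signals, and they grow as tight epithelial colonies. On OP9 cells they pass through mesoderm to hemogenic endothelium (HE), endothelial cells that round up and leave the vessel wall as blood cells under RUNX1. Early embryonic blood is made of erythroid cells, megakaryocytes and macrophages, and GATA2 is a zinc finger factor known for its role in blood stem and progenitor cells.

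The hESC libraries correlated with each other at a Pearson r of 0.955 and the HPC libraries at 0.937 (log2(TPM + 1), 18361 genes), while r between an hESC and an HPC library was 0.732 to 0.743. Genes are the points of these correlations and are not replicates. The labels do not say whether replicates came from separate cultures, so p-values measure only the spread between these libraries, which may be technical. The column headers of the hESC libraries carry P38 and P58, whose meaning is not stated. Per the study's methods, the parent line was targeted at the passage that has the number of P38, and whether the headers give passages is not stated. Of the 18361 genes, 12732 (69.3%) reached a TPM of 1 in all 4 libraries, 1440 in both hESC libraries and no HPC library, and 1196 in both HPC libraries and no hESC library. GATA2 itself (ENSG00000179348, chr3:128198270-128212044 of GRCh37) stood at 2.05 and 5.54 TPM in hESCs and at 112 and 83.8 in HPCs. An aberrant mRNA may still be made from the disrupted locus and would be included in this value, so it does not check the genotype.

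From hESCs to HPCs, 3041 of the 18361 genes (16.6%) rose and 3523 (19.2%) fell, at an adjusted p under 0.05 from limma on log2(TPM + 1). Over all 21543 genes tested, 30.6% were called in either direction. Without the hESC library of replicate 1, the number called went from 6586 to 4180, with the lone hESC library assumed to vary like the other groups. With 2 libraries against 2, an exact permutation test of a single gene cannot give a two-sided p below 0.333, so the calls rest on the variance that limma pools over genes and over the 5 groups of the series. The median size of a called difference was 1.66 on the log2 scale in both directions. Differences of at least 5 were found for 109 genes that rose and 115 that fell. Both HPC libraries lay above both hESC libraries for 6098 genes and below both for 6638. The TPM minimum bears on counts over lists of genes, because a gene that met it in 1 group alone was bound to differ. Both HPC libraries and no hESC library met it for 8 of the 10 globins described below, 12 of 21 megakaryocyte genes, 12 of 29 hematopoietic transcription factors, 9 of 23 red cell membrane genes, 8 of 23 endothelial genes, 5 of 9 neutrophil genes and 5 of 9 macrophage genes. Both hESC libraries and no HPC library met it for 8 of 14 pluripotency transcription factors and 7 of 26 epithelial genes. The counts below are descriptions for that reason, to be set beside the 16.6% of all described genes that rose and the 19.2% that fell. In bulk RNA, fewer cells of a type and less RNA per cell cannot be told apart.

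**Figure D1:**
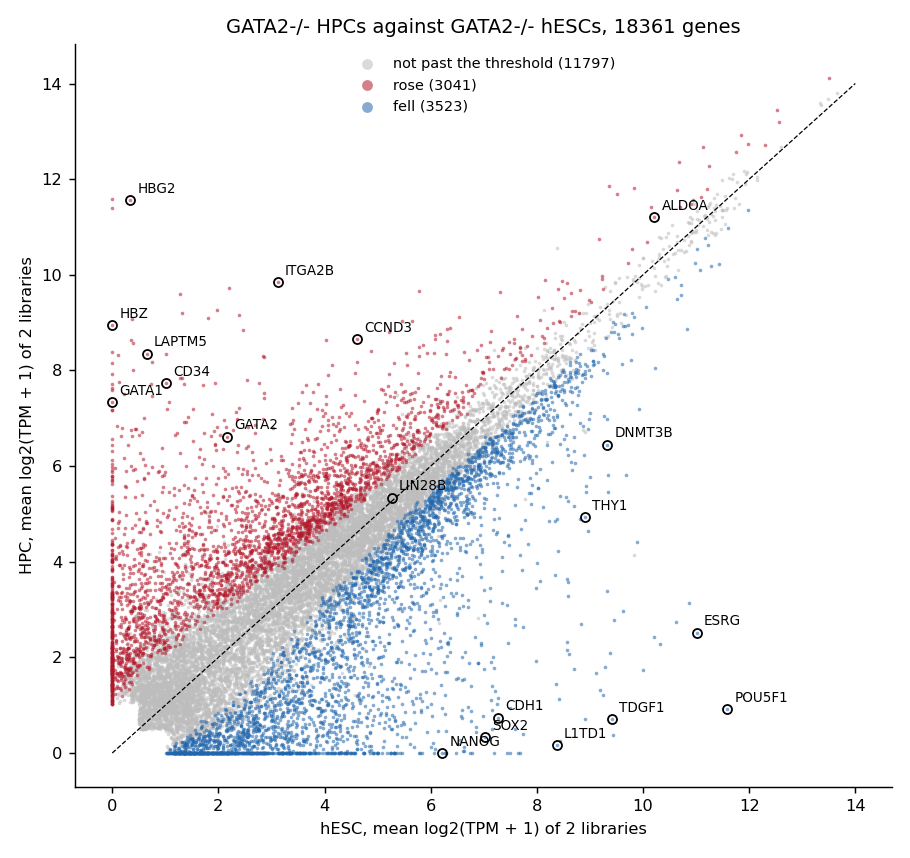
Mean log2(TPM + 1) of the 2 HPC libraries (vertical axis) against that of the 2 hESC libraries (horizontal axis) for 18361 genes, coloured by whether a gene rose (3041), fell (3523) or did not pass. Each point is a gene and the diagonal marks equal levels; POU5F1 lies far below it, HBG2 and ITGA2B far above it.

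The transcription factors of pluripotency fell together. All 14 listed pluripotency transcription factors fell, with a median log2 difference (HPC minus hESC) of -5.13, against 19.2% of all genes described. POU5F1 (ENSG00000204531, chr6:31132114-31148508 of GRCh37), the gene of OCT4, stood at 3332 and 2855 TPM in hESCs and at 0.69 and 1.09 in HPCs. This was the largest fall of the 18361 genes (-10.68, SE 0.36, adjusted p = 6.94e-07). Its partner SOX2 fell from a TPM of 128 and 132 to 0.57 and 0, and NANOG from 86.3 and 62 to 0 in both HPC libraries. OTX2 and FOXD3, factors of primed pluripotent cells, and PRDM14, a repressor that maintains hESC identity, were also listed at 0 in both HPC libraries. SALL4, a zinc finger factor of stem cells, kept a TPM of 21.4 and 17.6 after 121 and 84 (-2.32, adjusted p = 0.00142). The call of TFAP2C, an AP-2 factor, was lost without the HPC library of replicate 2 (adjusted p = 0.0131 in full and 0.0564 without it).

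Of 25 other pluripotency-associated genes, 23 fell and 0 rose, with a median log2 difference of -3.90, beside 19.2% and 16.6% of all described genes. TDGF1, the Nodal co-receptor CRIPTO, had a TPM of 679 and 683 in hESCs and of 1.65 and 0 in HPCs. L1TD1, an RNA-binding protein of stem cells, fell from 386 and 284 to 0.09 and 0.15 (-8.21, SE 0.34, adjusted p = 1.81e-06). Not all of this program went to 0. LIN28A, which blocks maturation of let-7 miRNAs, kept a TPM of 163 and 97.1 after 611 and 665, while its paralogue LIN28B stood at 44.5 and 35.2 against 41.6 and 33.6 (difference 0.08, adjusted p = 0.852). DPPA4, a chromatin protein of pluripotent cells, remained at 64.4 and 44.5 after 515 and 502. GDF3, a TGF-beta family ligand, did not pass (TPM 23.1 and 11.2 in hESCs and 40.1 and 18.1 in HPCs, adjusted p = 0.348).

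The 15 largest falls of protein-coding genes were, in order, POU5F1, TDGF1, HHLA1, L1TD1, SFRP2, GABRP, SCGB3A2, RARRES2, LECT1, CRABP1, LINC00371, SLC7A3, AP1M2, SOX2 and CDH3. LINC00371 carries a non-coding name in the deposited values but is protein coding in the GENCODE annotation. HHLA1 had a TPM of 916 and 1156 in hESCs and of 3.12 and 1.67 in HPCs. SCGB3A2, a secretoglobin, fell from 1756 and 2001 to 5.41 and 11.2. CRABP1, which binds retinoic acid in the cytoplasm, fell from 204 and 220.3 to 0 and 0.73. The 5 largest falls outside protein-coding genes were LINC00678, ESRG, RP11-277P12.10, RP11-148B6.1 and CTD-2354A18.1. ESRG, a non-coding RNA of pluripotent cells, was the most abundant of them, at 1844 and 2304 in hESCs and 5.73 and 3.88 in HPCs (-8.49, SE 0.39, adjusted p = 2.74e-06).

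Genes of the signals that keep hESCs undifferentiated went the same way in large part, and the signals themselves were not measured. Of 22 genes of FGF and Nodal/activin signalling, 13 fell (59.1%) and 3 rose (13.6%), beside 19.2% and 16.6% of all described genes. The ligand FGF2 fell from a TPM of 35.8 and 31.5 to 0.2 and 0.19, and the receptors FGFR2 and FGFR1 had log2 differences of -4.28 and -2.48. FGFR3 rose, from 15.6 and 10.4 to 87.9 and 69.7 (2.53, adjusted p = 0.00484). Without the hESC library of replicate 2 it did not pass (adjusted p = 0.0671), and 1 gene of the list rose. NODAL was listed at 0 in both HPC libraries after 42.6 and 10.7. Its feedback inhibitors LEFTY1 and LEFTY2 fell too, from 71.8 and 33.1 to 0.4 and 2.25 and from 19.7 and 17.1 to 0.17 and 0.88. The shared signal carriers SMAD2 and SMAD3 did not pass the test (adjusted p = 0.155 and 1).

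Epithelial genes fell as a group, while mesenchymal transition genes did not. Of 26 epithelial junction and identity genes, 25 fell and 0 rose, with a median of -3.52, against 19.2% and 16.6% of all described genes. CDH1, the gene of E-cadherin, had a TPM of 171 and 139 in hESCs and of 0.4 and 1 in HPCs. ESRP1, a splicing regulator of epithelia, was listed at 0 in both HPC libraries after 76 and 76.5. The tight junction gene CLDN6 fell from 911 and 679.5 to 11.6 and 3.90. The keratins KRT8 and KRT18 kept more, at 61.4 and 71.2 and at 116 and 111 after 426 and 416 and 461 and 470.0. CLDN10 was the 1 gene of the list that did not pass, at 28.3 and 24.1 in hESCs and 26.8 and 17.5 in HPCs.

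Of 10 described mesenchymal transition genes, 5 rose (50%) and 2 fell (20%), beside 16.6% and 19.2% of all described genes. Of the 10, 3 met the minimum in the HPC libraries alone. VIM (vimentin) rose 2.67-fold in mean TPM, from 389.5 and 319 to 1029 and 859.6, after 4025 and 3897 in GATA2-/- HEs. ZEB2, a zinc finger repressor of CDH1, rose from 0.14 and 0 to 150.2 and 85.5, and S100A4, a calcium-binding protein of motile cells, from 41.7 and 44.2 to 483 and 569. The N-cadherin gene CDH2 fell from 30.3 and 17.3 to 6.68 and 3.99. Without the hESC library of replicate 1 this call was lost (adjusted p = 0.0675) and 0 genes of the list fell, and without the HPC library of replicate 2, 1 fell. SNAI1, another repressor of CDH1, did not pass (adjusted p = 0.655).

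Against this loss stood the gain of the blood program. Of 31 listed hematopoietic transcription factors, 29 were described, 25 of these rose and 0 fell, with a median log2 difference of 4.62, against 16.6% of all genes. Some were already high in GATA2-/- HEs, sorted at day 8 as CD34+CD31+CD43- cells. TAL1, which specifies blood and endothelium, had a TPM of 0.2 and 0 in hESCs, 261 and 156 in HEs and 253 and 186 in HPCs (HPC against HE 0.10, adjusted p = 0.868). Its partner LMO2 had 1.43 and 0.69 in hESCs, 275 and 238 in HEs and 365 and 284 in HPCs. FLI1, an ETS factor of vessels and platelets, had 0.11 and 0.22, then 200.4 and 222, then 198 and 164. Other factors were higher in HPCs than in HEs. RUNX1, the factor of the endothelial to blood transition, had 1.48 and 0.13 in hESCs, 44.8 and 19.4 in HEs and 361 and 229 in HPCs, and passed between HEs and HPCs as well (3.24, adjusted p = 0.00299).

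GATA1, the factor of erythroid cells and megakaryocytes, was listed at 0 in both hESC libraries and at 2.78 and 1.37 in HEs, and reached 143 and 182 in HPCs. KLF1, specific to red cells, had 0 and 0.66 in hESCs and 92.9 and 102 in HPCs. SPI1 (PU.1), a main factor of myeloid cells, had 0 and 0.27 in hESCs, 6.87 and 2.41 in HEs and 81 and 118 in HPCs (against hESCs 6.45, SE 0.41, adjusted p = 1.44e-05). These 3 lineage factors were therefore present together in the sorted population. MYB, needed for adult-type blood, rose from 2.69 and 3.52 to 97.7 and 101, after 6.67 and 3.53 in HEs. Over all described genes, 6.45% were higher and 7.58% lower in GATA2-/- HPCs than in GATA2-/- HEs, and 15 of the 29 transcription factors were higher and 3 lower. The 3 that were lower in HPCs than in HEs were ERG, HHEX and GATA3, each above hESCs. HLF and IRF8 stayed under the minimum. The comparisons of HPCs with hESCs and with HEs share the 2 HPC libraries.

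**Figure D2:**
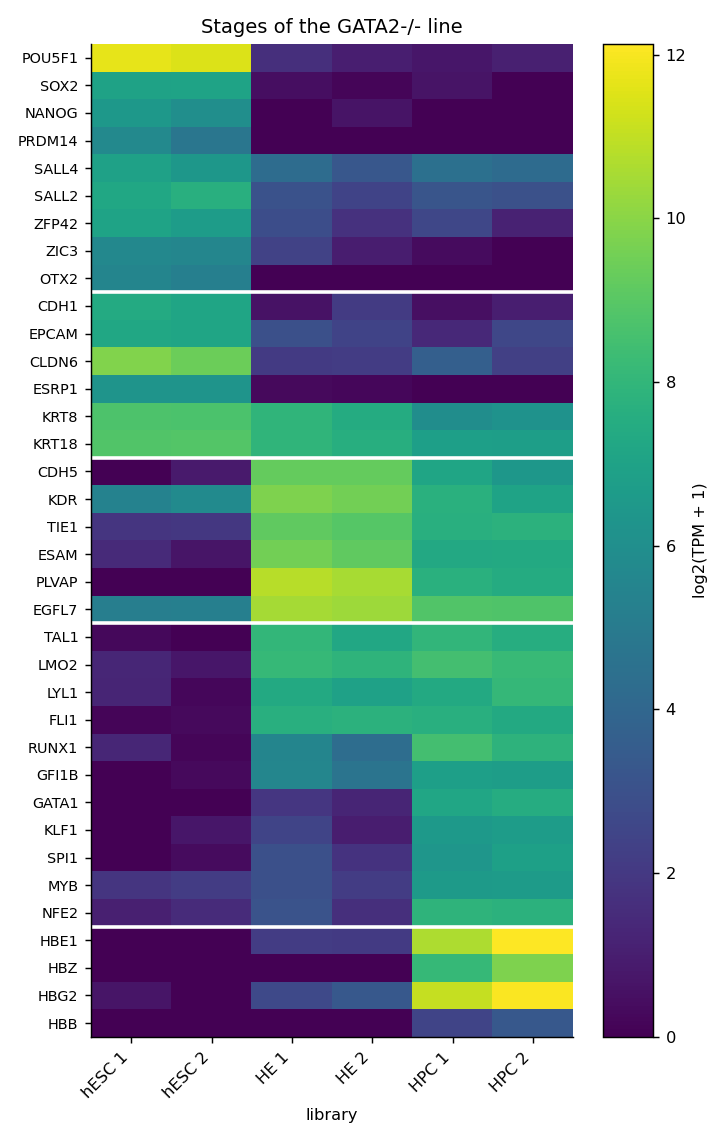
Colour gives log2(TPM + 1) per gene (rows) in the 2 hESC, 2 HE and 2 HPC libraries of the GATA2-/- line (columns), grouped by gene list. TAL1, LMO2 and FLI1 are bright from the HE columns on, while GATA1, KLF1, SPI1, MYB, HBE1, HBZ and HBG2 are bright in the HPC columns.

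Surface genes matched the gate that was used to sort the cells, which is a check and not a result. CD34 had a TPM of 1.04 and 1.01 in hESCs and of 242 and 187 in HPCs, and SPN, the gene of CD43, had 1.34 and 1.34 in hESCs and 98 and 106 in HPCs. Of 17 described blood surface genes, 13 rose and 0 fell, beside 16.6% and 19.2% of all described genes. Of the 17, 6 met the minimum in the HPC libraries alone. ITGA2B, the gene of CD41, an early marker of embryonic blood, rose from 5.81 and 10 to 736 and 1140.2 (6.73, SE 0.34, adjusted p = 3.99e-06). CD33, a myeloid sialic acid receptor, was listed at 0 in hESCs and at 67.1 and 69.9 in HPCs. PTPRC, the gene of the leukocyte antigen CD45, had 0.68 and 3.09 in HPCs against 0.56 and 3.06 in hESCs (difference 0.06, adjusted p = 0.966). KIT, the stem cell factor receptor, had 9.48 and 10.2 in hESCs and 8.48 and 13.7 in HPCs, below the 45.2 and 40.1 of HEs. CD38 and FLT3 stayed under the minimum.

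Inside the cells, genes of the signalling and motility machinery of blood rose broadly. Among 29 described genes of blood cytoskeleton and signalling adaptors, 25 rose and 0 fell, with a median of 3.21. Over all described genes, 16.6% rose and 19.2% fell. LAPTM5, a lysosomal protein of hematopoietic cells, had 0.67 and 0.47 in hESCs and 326 and 326 in HPCs (7.70, SE 0.14, adjusted p = 4.13e-08). BTK, a kinase of B and myeloid cells, rose from 0.16 and 0 to 373 and 273. FERMT3, which activates integrins in platelets and leukocytes, rose from 2.85 and 6.96 to 381 and 552. LCP1 and CORO1A, actin regulators of leukocytes, did not pass (adjusted p = 0.472 and 0.486), with HPC values of 11.5 and 28.8 and of 16.9 and 40.4. In both genes the hESC and HPC values overlapped.

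The 4 largest rises of protein-coding genes were globins. Each of the 10 globin genes rose, with a median log2 difference of 7.96, beside 16.6% of all described genes. Together the globins took 0.709% and 1.58% of the TPM of the HPC libraries against 0.000571% and 0.000487% in hESCs. Among the beta-like genes, the embryonic and fetal ones dominated. HBE1, the embryonic beta-like globin (chr11:5289575-5526882 of GRCh37), was listed at 0 in both hESC libraries and at 1598 and 4487 in HPCs. HBZ, the embryonic alpha-like globin, was listed at 0 in hESCs and at 276 and 872 in HPCs. The fetal gene HBG2 reached 2155 and 4284 and the alpha gene HBA1 2154 and 4328. The adult beta-like genes were far lower, with 4.65 and 9.29 for HBB and 54.4 and 77 for HBD. Every globin was higher in the HPC library of replicate 2 than in that of replicate 1. HBM, a minor alpha-like globin, lost its call when either hESC library or the HPC library of replicate 2 was left out (adjusted p from 0.0552 to 0.0773). HBA1 and HBA2, and HBG1 and HBG2, are near-identical copies, and the annotated spans of HBE1 and HBG2 overlap, so their reads may be split between them in an uncertain way.

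The enzymes that make heme for these globins rose unevenly. Of 20 genes of heme biosynthesis and iron handling, 14 rose (70%) and 2 fell (10%), beside 16.6% and 19.2% of all described genes. Without either hESC library or without the HPC library of replicate 2 only 9 rose, and 1 fell whichever of the 4 libraries was left out. ALAS2, the erythroid form of the rate-limiting enzyme, rose from a TPM of 0.38 and 0.19 to 419 and 372 (8.27, SE 0.41, adjusted p = 3.83e-06). Its housekeeping paralogue ALAS1 fell from 43 and 41.2 to 21.5 and 15.9 (-1.14, adjusted p = 0.00539). CPOX and UROD, later steps of the pathway, rose 5.71-fold and 3.40-fold in mean TPM. SLC25A37 (mitoferrin), which carries iron into mitochondria, rose from 12.3 and 22.4 to 269 and 279.9. FTL, the light chain of ferritin, did not pass (adjusted p = 0.948).

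Red cell membrane genes were turned on in part. Of 23 described members, 17 rose and 1 fell, beside 16.6% and 19.2% of all described genes. RHAG, the Rh-associated glycoprotein, was listed at 0 in hESCs and at 197 and 199 in HPCs. The blood group gene KEL rose from 1.59 and 4.24 to 151 and 119.8. Genes of more mature red cells stayed low. The anion exchanger gene SLC4A1 (band 3) had 0.38 and 2.76 in HPCs and passed only without the HPC library of replicate 1 (adjusted p = 0.0387). EPB42 (protein 4.2) had 0.98 and 2.21, and the alpha globin chaperone gene AHSP was listed at 0 in both HPC libraries after 1.90 and 2.01 in hESCs. ADD2, an adducin of the membrane skeleton that neural cells also express, fell from 89.7 and 73 to 3.62 and 5.12 (-3.95, adjusted p = 1.18e-05). GYPB and GYPE are close paralogues, and their values are uncertain for that reason.

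The 250 bases before the start of each gene in RefSeq (GRCh38.p14) were searched on both strands for 4 spellings of the GATA motif. These were AGATAA and its variant AGATAG, and likewise TGATAA and its variant TGATAG. The table held a window for 10640 of the 18361 genes and for 16 of the 25 red cell membrane genes. At least 1 match was found in 10 of these 16 windows, in 8 of 18 windows of megakaryocyte genes and in 4 of 26 of hematopoietic transcription factors. Lists that fell held it as well, in 3 of 7 windows of pluripotency transcription factors and in 6 of 15 of other pluripotency-associated genes. The largest share was that of mast cell, basophil and eosinophil genes, 6 of 8 windows, though 9 of these 12 genes stayed under the TPM minimum. Neural and trophoblast lists held it in 3 of 8 and 3 of 7 windows, and the epithelial list, which fell, in 0 of 14. It was found in 14% of windows of described genes, 16.3% of those that rose, 13.5% of those that fell and 23.2% of all 27305 windows. The octamer core ATGCAAA, searched in the same way on both strands, was found in 2 of 7 windows of pluripotency transcription factors, those of NANOG and SOX2. It was also found in 3 of 16 windows of red cell membrane genes, in 2.72% of windows of genes that rose, 2.85% of those that fell and 3.96% of all windows. The windows of 5 blood genes that rose and of these 2, which fell, are shown. They run 5′ to 3′ on the strand of the gene, with every match to either motif in capitals. Each window shown holds a match, so they do not show how common a match is. A match is a run of letters and no evidence of a bound site.
KLF1: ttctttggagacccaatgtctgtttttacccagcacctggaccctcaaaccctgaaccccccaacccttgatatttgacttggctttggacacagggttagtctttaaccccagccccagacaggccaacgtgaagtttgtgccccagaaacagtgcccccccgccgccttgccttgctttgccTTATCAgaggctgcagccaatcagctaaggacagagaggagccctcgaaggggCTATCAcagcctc
ALAS2: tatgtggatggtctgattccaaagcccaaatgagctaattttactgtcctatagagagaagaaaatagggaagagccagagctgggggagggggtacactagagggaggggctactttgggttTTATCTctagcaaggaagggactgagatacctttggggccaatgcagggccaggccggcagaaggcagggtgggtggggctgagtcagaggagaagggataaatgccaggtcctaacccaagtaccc
RHAG: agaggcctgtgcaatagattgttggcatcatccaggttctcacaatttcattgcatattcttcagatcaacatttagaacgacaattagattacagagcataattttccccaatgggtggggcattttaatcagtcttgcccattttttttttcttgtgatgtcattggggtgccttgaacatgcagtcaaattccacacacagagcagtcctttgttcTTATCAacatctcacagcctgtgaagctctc
KEL: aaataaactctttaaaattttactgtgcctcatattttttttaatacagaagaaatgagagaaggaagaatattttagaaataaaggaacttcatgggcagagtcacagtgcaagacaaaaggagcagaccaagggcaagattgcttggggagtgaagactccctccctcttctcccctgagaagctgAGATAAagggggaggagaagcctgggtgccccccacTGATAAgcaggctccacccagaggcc
ITGA2B: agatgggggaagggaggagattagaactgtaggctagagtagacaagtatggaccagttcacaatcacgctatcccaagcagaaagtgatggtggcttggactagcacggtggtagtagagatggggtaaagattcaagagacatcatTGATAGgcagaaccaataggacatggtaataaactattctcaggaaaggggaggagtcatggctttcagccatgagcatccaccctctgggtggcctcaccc
NANOG: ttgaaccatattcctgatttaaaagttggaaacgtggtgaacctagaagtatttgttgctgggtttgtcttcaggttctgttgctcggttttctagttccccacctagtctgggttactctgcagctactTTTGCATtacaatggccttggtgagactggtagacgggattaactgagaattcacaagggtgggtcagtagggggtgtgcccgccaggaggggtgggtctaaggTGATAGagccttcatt
SOX2: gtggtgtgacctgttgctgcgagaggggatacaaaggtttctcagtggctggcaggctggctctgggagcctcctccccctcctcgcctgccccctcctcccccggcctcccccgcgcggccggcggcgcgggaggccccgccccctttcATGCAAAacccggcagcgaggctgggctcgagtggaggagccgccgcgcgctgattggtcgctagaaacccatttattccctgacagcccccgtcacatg

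The windows lie at chr19:12887202-12887451 (KLF1), chrX:55030978-55031227 (ALAS2), chr6:49636840-49637089 (RHAG), chr7:142962364-142962613 (KEL), chr17:44389650-44389899 (ITGA2B), chr12:7789152-7789401 (NANOG) and chr3:181711675-181711924 (SOX2). The blood genes are on the minus strand and NANOG and SOX2 on the plus strand. KLF1 had matches whose first base lay 66 and 13 bases before its start and KEL 62 and 26 bases before, while RHAG had 1 at 31, ITGA2B 1 at 102 and ALAS2 1 at 127. The octamer core began 120 bases before the start of NANOG, which also held a GATA match at 16, and 100 bases before that of SOX2.

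Most platelet genes rose. Of 24 listed megakaryocyte and platelet genes, 21 were described. Among these, 20 rose and 0 fell, with a median of 4.02, beside 16.6% and 19.2% of all described genes. For the 12 that met the minimum in the HPC libraries alone, the minimum fixed the direction. Beside ITGA2B, its partner in the fibrinogen receptor, ITGB3, was listed at 0 in both hESC libraries and at 218 and 203 in HPCs. MMRN1, a protein of platelet alpha granules, was listed at 0 in hESCs, had 34.6 and 32.7 in HEs and reached 145 and 140.1. GP1BA, part of the von Willebrand factor receptor, rose from 1.16 and 0.7 to 74 and 90. PF4, platelet factor 4, rose from 2.42 and 3.30 to 76.5 and 99.5 (4.53, SE 0.27, adjusted p = 9.17e-06). PPBP and GP9, genes of later platelets, had 0 and 3.15 and 0 and 6.31 in HPCs. They passed only without the HPC library of replicate 1, in which both were listed at 0 (adjusted p = 0.0295 and 0.00757).

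Myeloid genes were turned on selectively. Of 18 neutrophil genes, 9 were described, 6 of these rose and 1 fell, beside 16.6% and 19.2% of all described genes. Without the hESC library of replicate 2, 3 rose and 0 fell, without the hESC library of replicate 1, 4 rose, and without the HPC library of replicate 2, 0 fell. LYZ (lysozyme) was listed at 0 in both hESC libraries and at 56.4 and 59.9 in HPCs, and CSF3R, the G-CSF receptor, rose from 0 and 1.22 to 9.89 and 21.1. The granule genes ELANE, CAMP and BPI were listed at 0 in all 4 libraries, and MPO had 0 and 3.82 in HPCs. Of 19 macrophage genes, 9 were described and 8 of these rose, but 4 without the hESC library of replicate 1 and 5 without the HPC library of replicate 2. FCER1G, the common gamma chain of Fc receptors, rose from 0.71 and 0.63 to 179 and 173 (6.73, SE 0.18, adjusted p = 2.2e-07). CSF1R, the M-CSF receptor, rose from 0 and 0.09 to 9.70 and 27.5. CD14 and the complement genes C1QA, C1QB and C1QC were listed at 0 in both HPC libraries.

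Mast cell and lymphoid genes were few. Of 12 mast cell, basophil and eosinophil genes, 3 were described, 2 rose and 1 fell. All 3 met the minimum in 1 group alone, 2 in HPCs and 1 in hESCs. The minimum therefore fixed their direction, and these counts are no result. HDC, which makes histamine, rose from 0.36 and 0 to 61.2 and 82.7, and it was the 1 that rose when either hESC library or the HPC library of replicate 1 was left out. HPGDS and MS4A2 were listed at 0 in both HPC libraries. CLC, a gene of eosinophils and basophils, went the other way, from 10.3 and 12.1 in hESCs to 0 in both HPC libraries (-3.61, adjusted p = 6.36e-05). Of 16 lymphoid genes, 5 were described, 2 of them through the HPC libraries alone. Among the 5, 3 rose and 0 fell, beside 16.6% and 19.2% of all described genes. CD79B, a chain of the B cell receptor, rose from 0.94 and 3.53 to 17.5 and 28.9 after 52.5 and 45.8 in HEs, and MS4A1 and VPREB1 were listed at 0 in all 4 libraries.

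**Figure D3:**
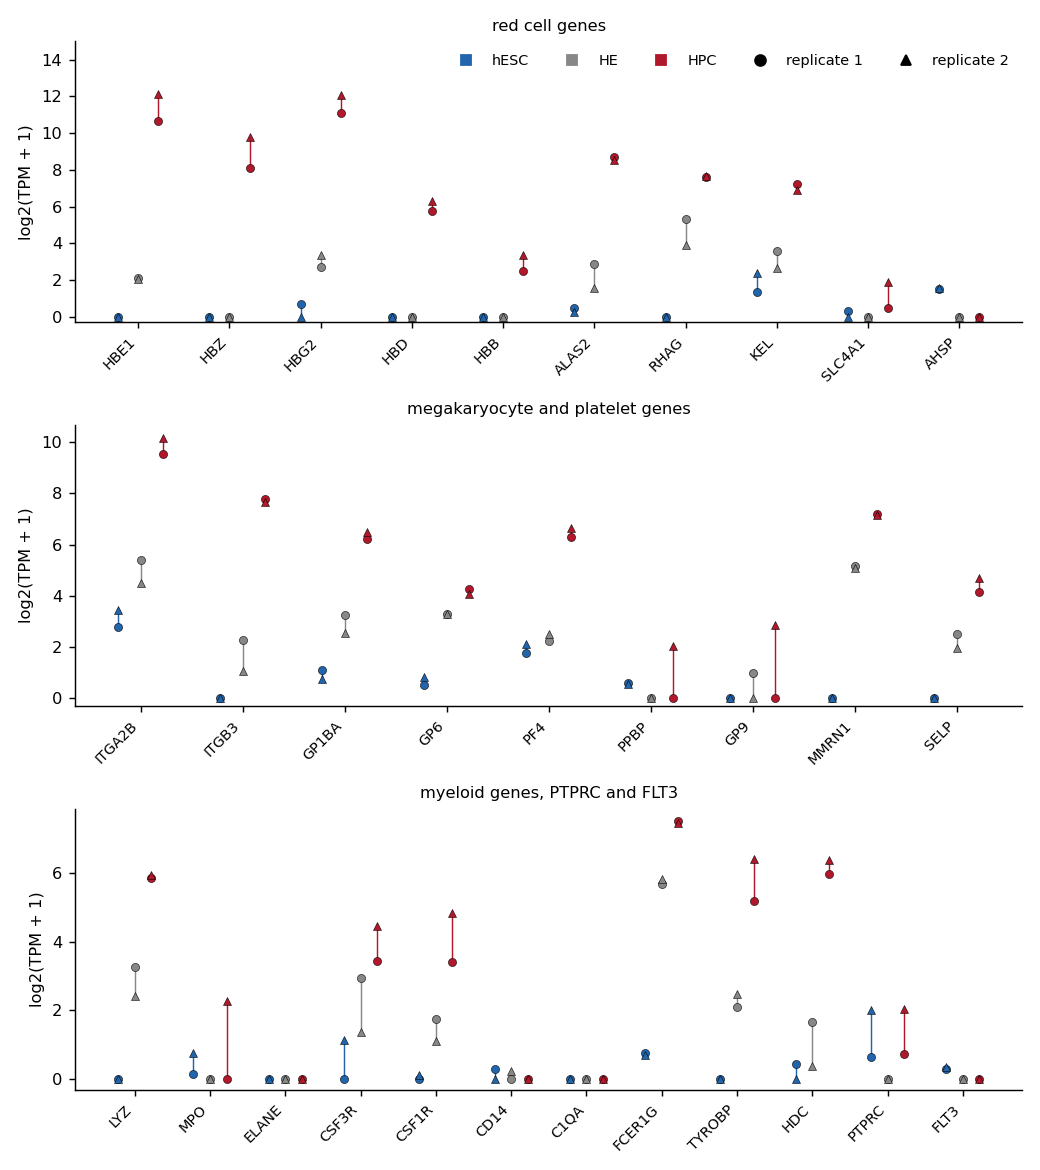
Points give log2(TPM + 1) of red cell, megakaryocyte and myeloid genes in each GATA2-/- library of the 3 stages, with both replicates shown. HBE1, HBG2 and ITGA2B stand far above the other stages in HPCs, AHSP, ELANE, CD14 and C1QA lie at 0 in both HPC libraries, and PTPRC overlaps its hESC values.

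Endothelial genes were above hESCs and below HEs. In the fit to all libraries, each of the 23 described members of the endothelial list rose from hESCs to HPCs (median 3.54), beside 16.6% of all described genes. Lower in HPCs than in HEs were 21 of them, beside 7.58% of all described genes. CDH5, the gene of VE-cadherin, had a TPM of 0 and 0.81 in hESCs, 614 and 608 in HEs and 137 and 85.9 in HPCs. TIE1, an endothelial receptor kinase, had 2.72 and 2.92, then 571 and 487, then 203 and 224 (HPC against hESC 5.81, SE 0.14, adjusted p = 2.2e-07). PLVAP, a protein of endothelial fenestrae and caveolae, was listed at 0 in hESCs and had 1815 and 1475 in HEs and 209 and 174 in HPCs. KDR, the main VEGF receptor, was already at 40.5 and 55.8 in hESCs and stood at 209 and 130.3 in HPCs, and its call was lost without the hESC library of replicate 1 (adjusted p = 0.063). SOX17, a factor of arterial and hemogenic endothelium, had 38.3 and 31.7 in HEs and 0 and 1.19 in HPCs. The summed level of the list was 186 and 197 in hESCs, 10550.0 and 9456 in HEs and 2373 and 1963 in HPCs.

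HOX genes, which mark position along the body axis, were near silent in hESCs. Of 39 HOX genes, 8 were described, all of the HOXB cluster, and the other 31 stayed under the TPM minimum. All 8 met the minimum in the HPC libraries alone, so the minimum fixed their direction, and that each of them rose is no result. HOXB2 was listed at 0 in hESCs and at 39.7 and 20.6 in HPCs, HOXB3 had 0 and 0.16 and then 27.3 and 23, and HOXB9 was listed at 0 and then at 28.5 and 13.4 (adjusted p = 8.03e-05). HOXB5, HOXB6, HOXB7, HOXB8 and HOXB9 were lower in HPCs than in HEs. Of these, HOXB7 and HOXB8 lost their call against hESCs without either hESC library or without the HPC library of replicate 1 (adjusted p from 0.0882 to 0.105 and from 0.171 to 0.203). In the HOXA cluster, HOXA9, a factor of blood stem cells, stood at 5.22 and 5.30 in HEs and was listed at 0 in both HPC libraries. Every HOXC and HOXD gene was listed at 0 in both HPC libraries.

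**Figure D4:**
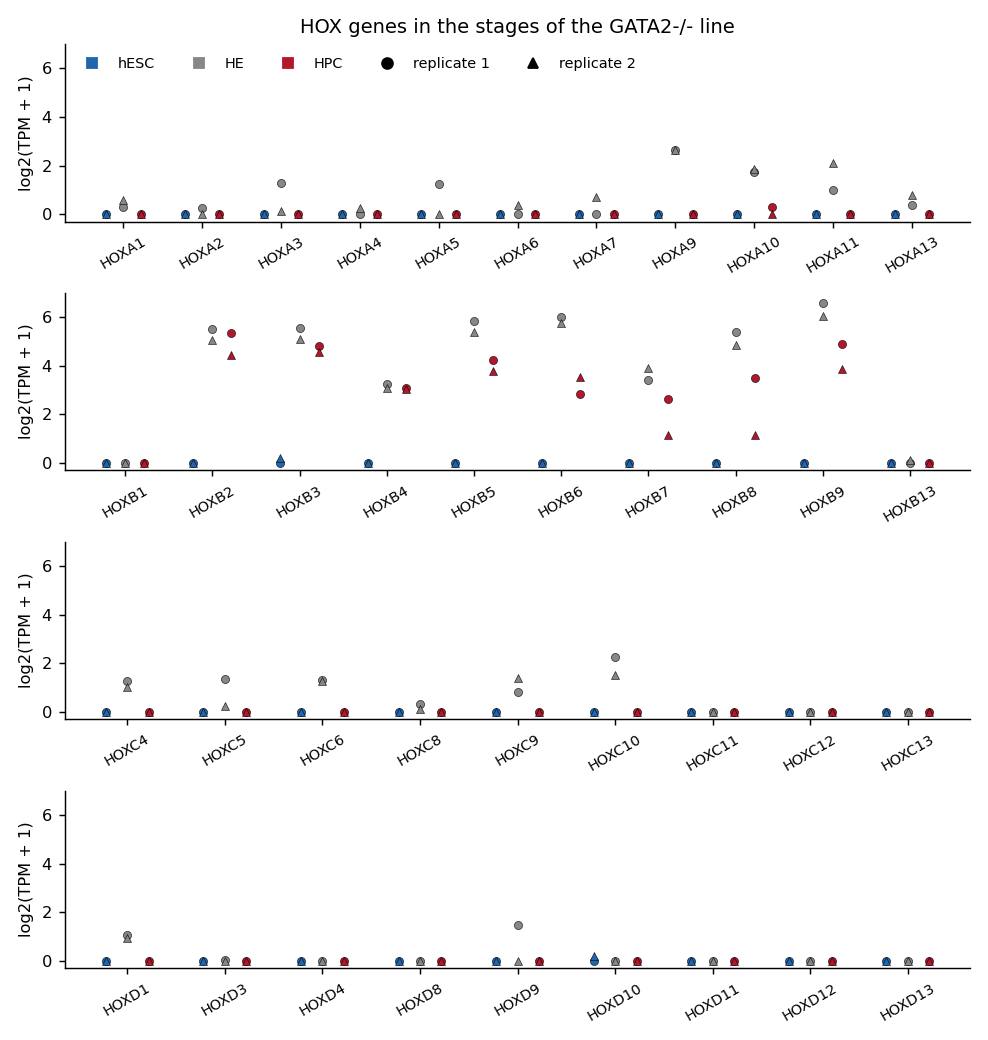
Points give log2(TPM + 1) of 39 HOX genes in the 4 clusters for each GATA2-/- library of the 3 stages, with both replicates shown. In HPCs 8 HOXB genes lie above 0 in both libraries, while in HEs low values are also seen in HOXA, HOXC and HOXD.

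Cytokine signalling changed at receptors, kinases and feedback. Of 26 described genes of cytokine receptors and JAK-STAT, 13 rose (50%) and 2 fell (7.69%), beside 16.6% and 19.2% of all described genes. EPOR, the erythropoietin receptor, rose from 6.09 and 16.9 to 49.8 and 49.4, and IL6ST (gp130) from 2.49 and 3.05 to 127 and 87.9. Below the receptors, JAK1, TYK2, STAT5A and STAT5B rose by 2.0, 2.11, 3.08 and 1.43 on the log2 scale, while STAT3 did not pass (adjusted p = 0.287). The 2 that fell were SOCS1, a feedback inhibitor, from 28.1 and 21.9 to 1.41 and 0.91, and the kinase gene PIM2, from 194 and 159.7 to 20.3 and 18.6.

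In the Notch pathway, 6 of 18 described genes rose (33.3%) and 3 fell (16.7%), beside 16.6% and 19.2% of all described genes. HES1, a main Notch target, rose from 9.64 and 9.11 to 103 and 77.3 (3.12, SE 0.35, adjusted p = 0.000275). MFNG, which modifies Notch receptors, rose from 4.09 and 4.01 to 28.6 and 35.8. DLL3, an inhibitory ligand, fell from 8.98 and 13 to 1.18 and 1.63. Without either hESC library or without the HPC library of replicate 1, 3 genes rose, close to the share over all genes. Without the hESC library of replicate 1 or the HPC library of replicate 2, 1 fell. HEY1, a Notch target of arterial endothelium, stood at 0.71 and 0.26 in hESCs, 54 and 85.9 in HEs and 5.53 and 7.65 in HPCs.

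Chromatin genes changed member by member within their families. Of 14 described genes of DNA methylation and demethylation, 4 rose (28.6%) and 2 fell (14.3%), beside 16.6% and 19.2% of all described genes. Only 1 rose without the hESC or the HPC library of replicate 1 and 2 without either library of replicate 2, and 1 fell without either hESC library or the HPC library of replicate 2. The de novo methyltransferase gene DNMT3B fell from a TPM of 795 and 518 to 92.2 and 80.7 (-2.88, SE 0.21, adjusted p = 2.69e-05), while DNMT3A and DNMT1 did not pass (adjusted p = 0.845 and 0.893). TET2, which oxidises methylcytosine, rose from 0.87 and 0.79 to 9.91 and 9.50. Of 29 Polycomb genes, 10 rose (34.5%) and 5 fell (17.2%), and 3 to 5 rose when any 1 of the 4 libraries was left out. Within PRC1, PHC1 fell from 373 and 462 to 35.3 and 34 and its paralogue PHC2 rose from 4.17 and 4.75 to 63.1 and 49.8. YAF2, a subunit of PRC1, rose from 0.93 and 0.61 to 19.6 and 13.3. JARID2, a cofactor of PRC2, fell from 128 and 93.9 to 35.1 and 27.6, and its catalytic subunit EZH2 did not pass (adjusted p = 0.554). In the LIN28 and fetal axis, 4 of 9 genes fell and 1 rose. TRIM71, a partner of LIN28A in let-7 control, fell from 61.3 and 71.1 to 19.8 and 14.1, whereas the RNA-binding genes IGF2BP1 and IGF2BP2 did not pass (adjusted p = 0.376 and 0.522).

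Of 31 described cell cycle genes, 6 rose (19.4%) and 9 fell (29%), beside 16.6% and 19.2% of all described genes, but only 2 fell without the hESC library of replicate 1 and 5 without that of replicate 2. The proliferation markers MKI67, TOP2A, CDK1 and PLK1 did not pass (adjusted p = 0.86, 0.376, 0.975 and 0.289). CCND3, a D cyclin of blood cells, rose 17.4-fold in mean TPM, from 24.7 and 22.1 to 355 and 459 (4.05, SE 0.23, adjusted p = 6.44e-06), after 55.2 and 38.8 in HEs. The CDK inhibitors CDKN1C (p57) and CDKN2D (p19) rose from 7.24 and 5.23 to 167 and 94.1 and from 2.19 and 3.15 to 29 and 35.7. The replication licensing genes MCM3 and MCM6 had log2 differences of -1.36 and -1.32.

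In the BCL2 family, 4 of 14 described genes rose and 4 fell (28.6% each way, beside 16.6% and 19.2% of all described genes), and 2 rose when any 1 of the 4 libraries was left out. The genes that fell were the apoptosis inducers PMAIP1 (NOXA), BOK, BAK1 and BAD. PMAIP1 fell from 82.6 and 97.4 to 4.86 and 8.96, and the survival gene MCL1 rose from 104 and 107 to 187 and 198.

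Most antigen presentation genes fell. Of 19 described, 12 fell (63.2%) and 2 rose (10.5%), with a median of -1.98, beside 19.2% and 16.6% of all described genes. The classical class I gene HLA-B fell from a TPM of 88.5 and 89.5 to 8.53 and 18.5 and HLA-C from 352 and 276 to 58 and 77.8. These genes are alike and vary between people, so mapping of short reads could have split or lost reads among them. The peptide transporter gene TAP1 and the immunoproteasome gene PSMB8 fell from 10.9 and 12.2 to 0.15 and 0.2 and from 19.1 and 23.4 to 0 and 0.67. The 2 that rose were HLA-E, a ligand of natural killer cell receptors, from 17.4 and 23.4 to 134 and 139.9, and B2M, the light chain shared by class I molecules, from 112 and 132 to 391 and 351 (1.59, SE 0.17, adjusted p = 0.000172). IRF1, an interferon-responsive activator of this pathway, did not pass (adjusted p = 0.984).

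Energy genes moved by smaller amounts. Of 25 genes of glycolysis and hypoxia, 10 rose (40%) and 2 fell (8%), with a median of 0.53, beside 16.6% and 19.2% of all described genes. Without the hESC or the HPC library of replicate 1 fewer rose, nearer that share. LDHA, which makes lactate, rose 2.94-fold in mean TPM, from 451 and 733 to 2011 and 1468, and its isoenzyme LDHB fell from 1438 and 1699.6 to 984 and 1012. BNIP3, a hypoxia-induced mitophagy receptor, rose from 18.4 and 70.2 to 299 and 195. GAPDH stood at 6119 and 6349 and at 6353 and 6788 (adjusted p = 0.75). The 13 protein-coding genes of the mitochondrial genome took 8.11% and 7.52% of TPM in hESCs, 5.02% and 4.90% in HEs and 11.7% and 11.2% in HPCs, and 10 of the 13 rose. The genes with the highest mean TPM were mostly of this genome at both stages. MT-CO1, MT-CO2, MT-CO3, MT-ATP6, MT-ATP8, MT-ND4, MT-ND4L and EEF1A1, a translation elongation factor, were among the 10 highest in both groups, joined by GAPDH and RPS2 in hESCs and by MT-ND2 and the ribosomal RNA gene MT-RNR2 in HPCs. MT-CO2, MT-CO3, MT-ATP6, EEF1A1 and RPS2 did not pass (adjusted p = 0.525, 0.186, 0.425, 0.396 and 0.535), though under quantile normalization RPS2 passed with a log2 difference of -0.46 (adjusted p = 0.041) and MT-CO2 with -0.35 (adjusted p = 0.0419). MT-CO1 and MT-ND4L rose, but lost their calls when any 1 of the 4 libraries was left out (adjusted p from 0.053 to 0.11 and from 0.0712 to 0.196), and MT-ND4 when any but the HPC library of replicate 2 was (0.0601 to 0.086). MT-RNR2 lost its call without either library of replicate 2 (0.109 and 0.0738). MT-ND1, a subunit of complex I, rose from 2124 and 2364 to 6598 and 6488 (1.55, SE 0.15, adjusted p = 0.000115). Under quantile normalization 3 of the 13 rose and 1 fell, under median scaling 6 rose, and without the hESC or the HPC library of replicate 1, 6 rose.

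Immediate early genes, which answer within minutes to growth factors and to handling of cells, were far higher in HPCs. Of 20 AP-1 and immediate early genes, 16 rose and 1 fell, with a median of 3.54, beside 16.6% and 19.2% of all described genes. FOS had a TPM of 14.5 and 9.29 in hESCs, 28.6 and 54.9 in HEs and 185 and 227 in HPCs. EGR1 had 0.92 and 2.22, then 38.8 and 14.9, then 217 and 239.9 (HPC against hESC 6.53, SE 0.49, adjusted p = 3.06e-05). JUNB rose from 1.20 and 3.45 to 63.7 and 103, and IER3 was the 1 that fell, from 10.3 and 21.9 to 1.85 and 0. The summed level of the list was 228 and 241 in hESCs, 1133 and 820.0 in HEs and 1553 and 2032 in HPCs, and its part in the other differences was not tested.

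Among markers of other cell types that the cultures or the gate could hold, some were near 0 in HPCs and others were not. Of 16 stromal and mesenchymal genes, 12 were described, 2 rose (16.7%) and 4 fell (33.3%), beside 16.6% and 19.2% of all described genes. Fewer rose without either hESC library or the HPC library of replicate 2. The summed level of the list was 1697 and 1033 in hESCs and 490.4 and 274 in HPCs. The fibroblast genes DCN and LUM had 0 and 1.42 and 0 and 0.71 in HPCs, and COL1A1 had 65 and 42.4 against 63.7 and 28.5 in hESCs. THY1, a surface protein of hESCs and fibroblasts, fell from 488 and 473 to 53.1 and 16.2. Of 10 neural genes, 3 were described and all fell, among them TUBB3, a neuronal tubulin, from 295 and 214 to 8.87 and 11.1. PAX6, a neural progenitor factor, had 0.29 and 0.88 in HPCs. Of 11 endoderm genes, 6 were described, 5 of them through the HPC libraries alone, and 2 rose. That count changed whichever of the 4 libraries was left out. GATA6, a factor of endoderm and mesoderm, rose from 0.18 and 0 to 36.4 and 21.5, and FOXA2 had 0.12 and 0 in HPCs. Of 9 trophoblast genes, 2 were described, and KRT7 fell from 9.97 and 14.9 to 0 in both HPC libraries.

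Of 21 laminin, collagen IV and integrin genes of matrix and adhesion, 6 rose (28.6%) and 4 fell (19%), beside 16.6% and 19.2% of all described genes. Without the hESC library of replicate 1, 3 rose and 2 fell, and without the hESC library of replicate 2 or the HPC library of replicate 1, 2 rose. The integrin gene ITGB5, for a vitronectin receptor subunit, fell from 415 and 254 to 9.35 and 15.6 and the laminin chain gene LAMA1 from 24.6 and 25.9 to 2.27 and 1.76. ITGA9, an integrin alpha chain, rose from 3.44 and 1.69 to 44.1 and 26.6.

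**Figure D5:**
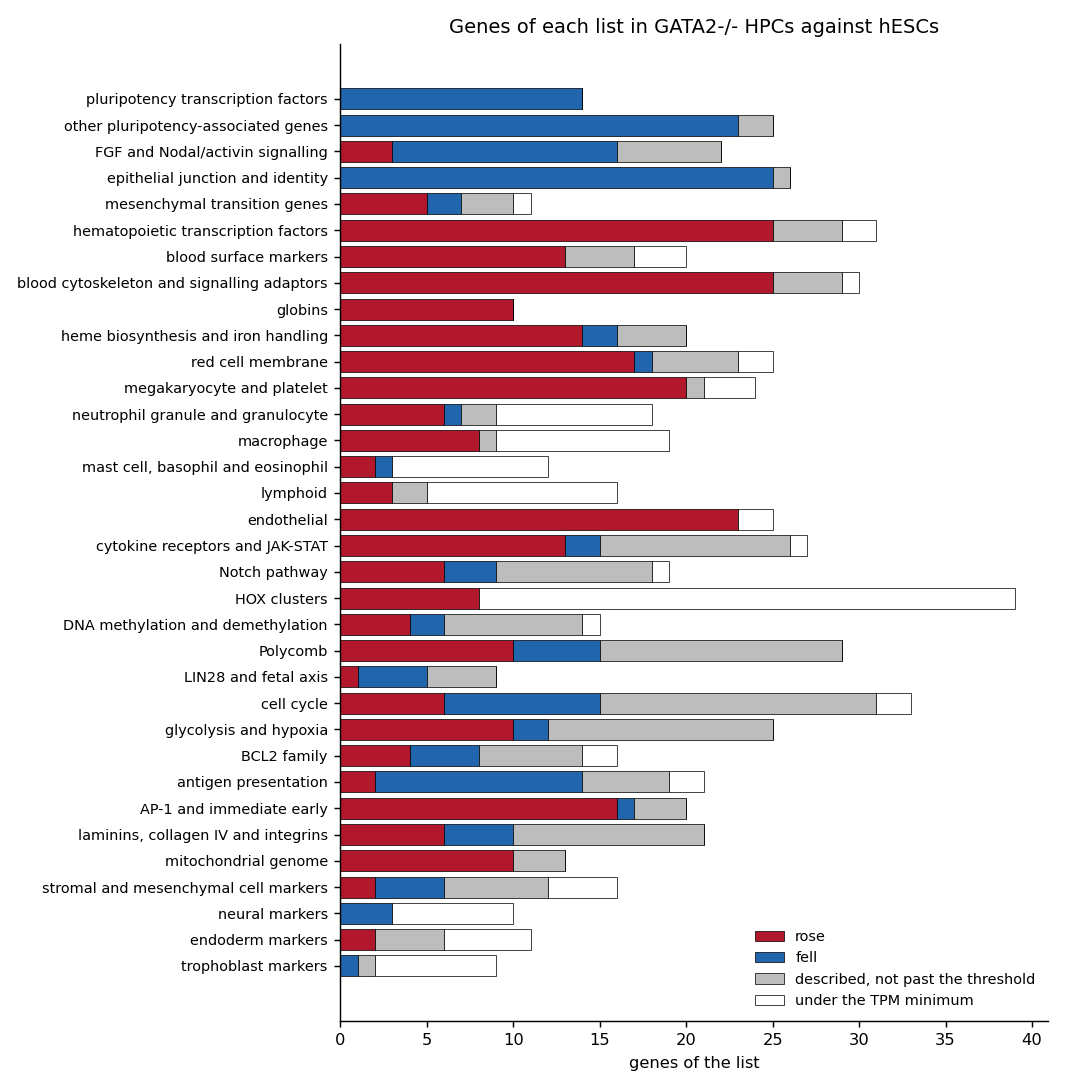
Bars give the number of genes of each of 34 lists that rose, fell, were described and did not pass, or stayed under the TPM minimum, in HPCs against hESCs. In the pluripotency and epithelial lists nearly all genes fell, in the globin, endothelial and megakaryocyte lists nearly all described genes rose, and most HOX and lymphoid genes stayed under the minimum.

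The 15 largest rises of protein-coding genes included, in order, HBA1, HBE1, HBG2, HBZ, MYL4, HBG1, DLK1, ALAS2, BTK, GAD1, TSPAN32, GYPB, ITGB3 and LAPTM5, and 4 of the 15 are on none of the lists. MYL4, an embryonic myosin light chain of muscle, had a TPM of 0.67 and 0 in hESCs, 50.4 and 15.7 in HEs and 522 and 559.5 in HPCs (8.71, SE 0.49, adjusted p = 6.77e-06). DLK1, an imprinted Notch family protein, rose from 2.19 and 0.82 to 579.8 and 1022. GAD1, an enzyme that makes GABA, rose from 0.11 and 0.54 to 421 and 339 after 75 and 27 in HEs. TSPAN32, a tetraspanin of blood cells, was listed at 0 in hESCs and at 250.1 and 319 in HPCs. Among genes that are not protein coding, the 5 largest rises were HBBP1, AC132217.4, RP11-627G18.3, ENSAP2 and AC007405.8. HBBP1, a pseudogene of the beta globin cluster, was listed at 0 in hESCs and HEs and at 67.9 and 110.0 in HPCs. ENSAP2, a processed pseudogene, lost its call when any 1 of the 4 libraries was left out (adjusted p from 0.0886 to 0.162).

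Against WT HPCs few of these genes passed. Of the 18361 genes, 9 (0.049%) passed between the genotypes, and 0 of the genes on the 34 lists did by limma. An unadjusted p under 0.05 was found for 1701 of the described genes (9.26%). It was found for all 13 mitochondrial genes, 6 of 29 genes of blood cytoskeleton and adaptors and 4 genes each of the megakaryocyte, blood surface, antigen presentation, laminin and integrin, and other pluripotency lists. Each of the other lists had 0 to 3 such genes, among them 1 endothelial gene and 1 globin. RUNX1 stood at 327 and 198, GATA1 at 172 and 219.6 and SPI1 at 195 and 151 in WT HPCs, with differences of 0.18, -0.27 and -0.81 (knockout minus WT; adjusted p = 0.964, 0.822 and 0.624). PF4 stood at 199.6 and 307 in WT HPCs, above both knockout libraries, with a difference of -1.49 that did not pass over all genes (adjusted p = 0.153). Mitochondrial genes took 6.68% and 7.21% of TPM in WT HPCs and globins 0.461% and 1.40%. A p that misses the threshold does not show that the genotypes had equal levels, and this comparison shares its 2 knockout HPC libraries with that against hESCs.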

How the data were processed

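RNA was isolated with Trizol and Direct-zol, made into TruSeq libraries and read single-end (30 to 50 bases) on a MiSeq. Per the study's methods, reads were checked with FastQC, trimmed with Trimmomatic and mapped with Bowtie to hg19. The submitters' processing notes also name RSEM and mm10, with no role given. The authors deposited 1 table of TPM values per library, and no value here was counted again from reads. TPM keeps no depth, so no counting interval can be given.

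Gene names were those deposited with the TPM values. Biotypes and GRCh37 coordinates came from a GENCODE annotation, which held 17643 of the 18361 genes. limma 3.58.1 in R 4.3.3 (group means, empirical Bayes with a trend) was fitted to log2(TPM + 1) of all 10 libraries in 5 groups of 2, over the 21543 genes that reached a TPM of 1 in 2 or more libraries. Genes with a Benjamini-Hochberg adjusted p under 0.05 were called, and every adjusted p in the text comes from limma. Differences are on the log2(TPM + 1) scale and understate changes of low genes. Cuffdiff, used by the study, needs alignments and was not run. The test was also run on data simulated with normal noise and far fewer changed genes, which does not check the calls made here.

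The genes described and the 34 lists were chosen with earlier results of these data known, and no list is independent evidence. Named genes were those of the lists, GATA2, the 15 largest rises and 15 largest falls of protein-coding genes that passed with the same sign in all 4 library pairs, the 5 largest each way among other genes, and the 10 highest in each group, and a few of them are not reported here. Alternatives were the 4 libraries alone, a pseudocount of 0.1, no filter, a mean TPM of at least 5, quantile normalization, median scaling, no trend, a replicate block and leaving out each of the 4 libraries. Promoter windows came from RefSeq.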

Additional observations from a re-analysis of the deposited data

How the results depend on the processing

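The number of genes called, 6586, was 5947 with only the 4 libraries in the fit, 6240 with a pseudocount of 0.1, 6165 with no filter, 5182 at a mean TPM of at least 5, 6930 under quantile normalization, 7040 under median scaling and 6168 without the trend. It was 4180 to 5053 when 1 of the 4 libraries was left out, with 1851 to 2332 genes that rose and 2283 to 2881 that fell, and was lowest without the hESC library of replicate 1. The shared calls kept their direction in each of these fits, with 0 opposite, and held 61.4% to 97.3% of the main calls. Replicate numbers are shared between groups only as numbers: the deviations of same-numbered hESC and HPC libraries had r = 0.00673 over 21543 genes, and with the replicate block 6924 genes were called, 6407 of them shared. The share of calls that rose was 46.3%, 48.5% under quantile normalization and 42.2% under median scaling. TPM gives no depth, so how far low counts limit a value is unknown. Of the list counts, with only the 4 libraries in the fit 5 macrophage genes rose instead of 8, 6 Polycomb genes instead of 10 and 1 mast cell gene instead of 2, 1 gene of the blood cytoskeleton fell instead of 0, 2 of the red cell membrane instead of 1, and 0 neutrophil genes instead of 1. At a mean TPM of at least 5, where fewer genes are tested, 5 macrophage, 3 neutrophil, 3 mesenchymal transition, 4 HOX, and 1 lymphoid, mast cell, stromal and endoderm gene each rose, and 0 neutrophil genes fell. With no filter 2 BCL2 family genes and 1 mast cell gene rose. With a pseudocount of 0.1, 4 endoderm genes rose and 0 neutrophil genes fell. With no filter and under quantile normalization and median scaling 1 endoderm gene rose, and under quantile normalization 1 gene of heme and iron fell. HOXB7, HOXB8 and TFAP2C did not pass with only the 4 libraries in the fit, where AHSP fell, and HOXB8 and ENSAP2 did not with no filter. Without the trend 6 genes of glycolysis rose and 1 fell, 6 mitochondrial genes and 1 endoderm gene rose and 1 gene of heme and iron fell, and HOXB8, LDHB, MT-CO1, MT-ND4 and MT-ND4L did not pass. Under quantile normalization the log2 difference was -0.35 for MT-CO2, -0.05 for MT-ND4L and -0.00 for MT-ND4, against 0.14, 0.42 and 0.63, and MT-ATP8, MT-CO1, MT-ND2 and MT-RNR2 did not pass, while RPS2 did (-0.46). MT-CO1, MT-ND4 and MT-ND4L did not pass under median scaling, MT-CO1 and MT-ND4L with no filter, and MT-ND4L with only the 4 libraries or a pseudocount of 0.1. The cause of these moves was not tested, other than the smaller number of genes tested.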
